A study of Mus musculus with 12 samples.

Results

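The thioredoxin and peroxiredoxin system was followed through 10 genes in satellite cells, the resident stem cells that rebuild mouse muscle fibres. The genes were chosen by symbol: the thioredoxin Txn1, the thioredoxin reductases Txnrd1 and Txnrd2, the sulfiredoxin Srxn1, the peroxiredoxins Prdx1, Prdx2, Prdx3, Prdx5 and Prdx6, and the thioredoxin inhibitor Txnip. All 10 were found in both deposited count tables, among 55385 genes, and all 10 passed the filter on low counts in every comparison. RNA came from 12 C57BL/6J mice, with 1 library per animal and 3 animals in each of 4 groups: female Hetz (Hetz164, Hetz165 and Hetz181), female KO (KO166, KO178 and KO188), male Hetz (Hetz204, Hetz245 and Hetz249) and male KO (KO240, KO247 and KO255). Hetz, which the labels also spell out as heterogeneous, is read here as heterozygous for Keap1 and KO as Keap1 knockout, and the question named for the series is how KEAP1 and NRF2 act in satellite cells of each sex. Cells were taken fresh from hindlimb muscle and frozen without culture. The ages of the mice, the alleles, and the promoter or Cre line that would limit a deletion to a cell type are not given in the sources used here.

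Thioredoxin is a small protein that passes electrons to oxidised protein disulfides, and thioredoxin reductase, a selenoenzyme, recharges it with electrons from NADPH. Peroxiredoxins are abundant enzymes that destroy hydrogen peroxide and are themselves recharged by thioredoxin, except Prdx6, which draws on glutathione. Sulfiredoxin rescues peroxiredoxins whose active cysteine has been oxidised too far, and TXNIP binds reduced thioredoxin and blocks it. KEAP1 marks the transcription factor NRF2 for breakdown, and Txn1, Txnrd1, Srxn1 and Prdx1 are textbook targets of NRF2.

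NRF2 binds the antioxidant response element, whose core is written TGACNNNGC, and AP-1 factors bind TGACTCA, so both strings were searched on both strands of RefSeq promoter windows on GRCm38.p6 (250 bases before to 50 after the start). Windows were found for 9 of the 10 genes, and for Prdx6 none was matched. Of their 11 windows (Txnrd1 has 3), 3 held TGACNNNGC, against 12.4% of 32851 windows of all genes. TGACTCA was in 2 of the 11, against 5.2% of all windows. The stretches upstream of the annotated exons that hold these matches are shown for the 3 genes with matches there. Those genes also have the smallest adjusted p in the female comparison given further on. The windows of Txn1 and Txnip, also called in that comparison, held neither string, and a link between strings and changes was not tested. The 3 stretches shown are on the plus strand, as are their genes, and capitals mark the matches. Prdx1 is at chr4:116685349-116685543, Srxn1 at chr2:152105274-152105515 and Txnrd1 at chr10:82859009-82859178.
Prdx1: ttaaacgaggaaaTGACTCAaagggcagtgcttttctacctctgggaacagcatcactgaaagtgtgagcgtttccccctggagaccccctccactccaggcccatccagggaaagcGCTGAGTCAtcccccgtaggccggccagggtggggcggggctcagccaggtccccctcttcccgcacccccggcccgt
Srxn1: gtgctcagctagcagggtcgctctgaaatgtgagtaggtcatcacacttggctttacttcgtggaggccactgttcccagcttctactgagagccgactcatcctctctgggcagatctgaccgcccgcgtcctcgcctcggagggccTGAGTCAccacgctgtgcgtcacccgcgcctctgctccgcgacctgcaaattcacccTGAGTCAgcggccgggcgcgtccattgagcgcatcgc
Txnrd1: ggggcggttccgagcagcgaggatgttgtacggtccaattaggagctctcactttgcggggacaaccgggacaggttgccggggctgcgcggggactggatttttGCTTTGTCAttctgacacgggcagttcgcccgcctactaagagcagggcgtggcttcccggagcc
In Prdx1 the last run of capitals is a TGACNNNGC match, read on the opposite strand, that begins 133 bases before the RefSeq start and contains a TGACTCA match, and the first run is a separate TGACTCA match 237 bases before the start. In Srxn1 both runs are TGACTCA matches on the opposite strand, 102 and 45 bases before the start, and its TGACNNNGC match lies 28 bases past the start at chr2:152105552-152105560. In Txnrd1 the run is a TGACNNNGC match on the opposite strand, 92 bases before the start of the second of its 3 RefSeq windows. A match describes letters only. No binding was measured in these libraries.

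On GRCm38 the genes lie on 8 chromosomes, given here as gene spans with the summed exonic length used for levels per length. Txn1 (ENSMUSG00000028367) is at chr4:57943373-57956411, minus strand, 1051 exonic bases. Txnrd1 (ENSMUSG00000020250) is at chr10:82833951-82897712, plus strand, 7086 bases, and Txnrd2 (ENSMUSG00000075704) at chr16:18426384-18479073, plus strand, 4401 bases. Srxn1 (ENSMUSG00000032802) is at chr2:152105516-152111376, plus strand, 2820 bases. Prdx1 (ENSMUSG00000028691) is at chr4:116685544-116700822, plus strand, 3043 bases, and Prdx2 (ENSMUSG00000005161) at chr8:84969587-84974834, plus strand, 3050 bases. Prdx3 (ENSMUSG00000024997) is at chr19:60864051-60874556 with 1478 bases and Prdx5 (ENSMUSG00000024953) at chr19:6906697-6910106 with 2139 bases, both on the minus strand. Prdx6 (ENSMUSG00000026701) is at chr1:161240112-161251219, minus strand, 4804 bases, and Txnip (ENSMUSG00000038393) at chr3:96557957-96561883, plus strand, 3123 bases. Other genes cover 19.4% of the exonic bases of Txnip (the antisense Gm15441, which had next to no counts), 19.1% of Prdx5 (Trmt112) and 11.5% of Prdx2 (Rnaseh2a). Counting ignored strand and dropped fragments in overlaps or with several map positions, so the levels of these 3 genes are uncertain. The same holds for Txn1, Prdx1 and Prdx2, whose longest transcript is covered over 29.3%, 26.0% and 57.5% by sequence at least 95% identical to other genes, overlapping neighbours included.

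The libraries held 13042039 to 19273245 counts, with 19833 to 22602 genes seen and 2.2 to 2.98% of counts from mitochondrial transcripts. The least counted gene of the system was Txnrd2, with 99 to 201 counts per library. Levels are given as CPM, a gene's count relative to the size of its library after TMM scaling over all 12 libraries, and Gm15441, the gene antisense to Txnip, was at 0 to 0.454 CPM. Keap1 did not check the labels: it was at 7.10 to 9.49 CPM in female Hetz, higher than that, up to 12.8, in all 3 female KO-labelled, 5.34 to 10.04 in male Hetz and 6.38 to 7.85 in male KO-labelled libraries, over all its exons, so libraries are called KO-labelled. The defining satellite cell markers were present in every library (Pax7 at 10.3 to 29.7, Myf5 at 879 to 1949 and Calcr at 69.4 to 237 CPM). Of the female libraries, Hetz165 stood apart: without it, 1479 genes in place of 319 differed between the female groups. P-values set the difference between groups against the spread between the animals within groups. In RNA from whole cell preparations, fewer cells of a type and less RNA per cell cannot be told apart.

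In females, Txnrd1, Srxn1, Prdx1, Txn1 and Txnip had higher mRNA levels in the KO-labelled satellite cells. By edgeR's quasi-likelihood test with Benjamini-Hochberg adjustment over 14036 genes, 5 of the 10 genes were higher (Txnrd1, Srxn1, Prdx1, Txn1 and Txnip, 1.73- to 2.69-fold) and 0 were lower. Over all genes tested, 1.29% were higher and 0.983% lower by the same call. The count over all genes, 319 as fitted, was 1479 without Hetz165 and fell by more than 1.5 times without any 1 of the other 5 animals, to 144 without KO188. The median log2 fold change of the 10 genes was 0.69, beside 0.00 over all genes. Txnrd2, Prdx2, Prdx3, Prdx5 and Prdx6 did not pass the test.

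Txnrd1, the cytosolic thioredoxin reductase, had the largest change of the 10. It was at 1428, 1013 and 952 CPM in Hetz164, Hetz165 and Hetz181 and at 2471, 3161 and 3527 CPM in KO166, KO178 and KO188, and animals keep this order below. Every KO-labelled library was above every Hetz library, with the lowest KO-labelled value well above the highest Hetz value. The fold was 2.69 (log2 fold change 1.43 ± 0.19 SE, 95% interval 1.01 to 1.85, edgeR adjusted p = 0.00152). Txnrd2, its mitochondrial counterpart, was at 8.53, 9.37 and 6.93 CPM against 9.62, 9.04 and 10.05 CPM, and the groups overlapped (log2 fold change 0.20, 95% interval -0.24 to 0.65, edgeR adjusted p = 0.638).

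Srxn1, the sulfiredoxin, stood at 226, 149 and 195 CPM in Hetz females, beside 361, 449.9 and 427 CPM in KO-labelled females. The groups did not overlap, and Hetz165 was the lowest library. Its fold was 2.17 (log2 fold change 1.12 ± 0.17 SE, edgeR adjusted p = 0.0033).

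Txn1, the thioredoxin of the cytosol and nucleus, was at 275, 241 and 191 CPM in Hetz and 314, 462 and 541 CPM in KO-labelled females. The groups did not overlap, but KO166 lay much nearer to the Hetz libraries than to KO188. The fold was 1.86 (log2 fold change 0.89 ± 0.20 SE, edgeR adjusted p = 0.0398). That call was lost without Hetz164 (adjusted p = 0.0766), Hetz181 (0.148), KO178 (0.127) or KO188 (0.202), with the log2 fold change at 0.71 to 1.09 over all 12 alternatives.

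**Figure D1:**
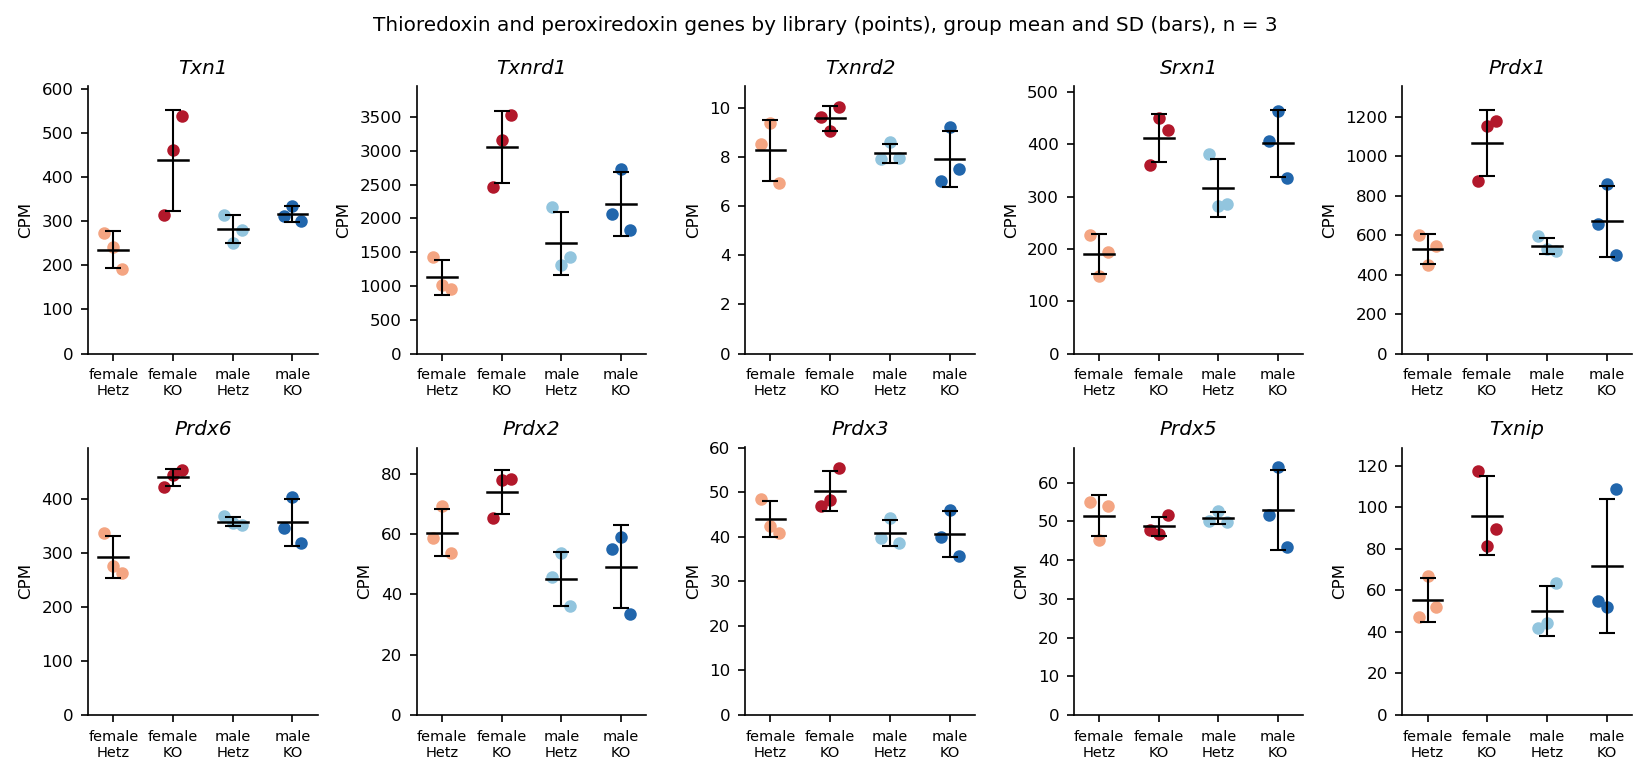
Scaled CPM (linear axis from 0) of the 10 genes in the 12 libraries. Points are animals, the long bar is the group mean and the whiskers are 1 SD over 3 animals. Female KO-labelled points lie above all female Hetz points for Txn1, Txnrd1, Srxn1, Prdx1, Prdx6 and Txnip, while the male groups overlap for all 10 genes.

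Among the peroxiredoxins, Prdx1, the main cytosolic enzyme, was the only member of the family here that passed the test in females. It was at 598, 448 and 544 CPM in Hetz and 873, 1149.7 and 1178 CPM in KO-labelled animals. The lowest KO-labelled library, KO166, was above the highest Hetz library, Hetz164. The fold was 2.01 (log2 fold change 1.01 ± 0.17 SE, edgeR adjusted p = 0.0061).

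Prdx6, the peroxiredoxin that uses glutathione and also acts on phospholipids, was at 338, 276 and 264 CPM in Hetz and 422, 443 and 454 CPM in KO-labelled females. These groups did not overlap either, and the KO-labelled animals were close together. The log2 fold change was 0.59 (95% interval 0.28 to 0.89), and the edgeR adjusted p of 0.0536 missed the threshold. It passed under 6 of the 12 alternatives. These were without Hetz165 (adjusted p = 0.0316), with DESeq2 (0.00579), with limma voom (0.0497), in the edgeR fit of all 12 libraries (0.0178), with no filter and with total counts only. It did not pass with RLE factors or without any other single animal, with edgeR adjusted p up to 0.246. With Prdx6, the groups were apart and KO-labelled higher for 6 of the 10 genes, beside 12.1% of all genes tested, and for 0 apart and lower, beside 10.1%.

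Prdx2, a cytosolic relative of Prdx1 that is abundant in red blood cells, ran from 53.6 to 69.2 CPM in Hetz and from 65.4 to 78.2 CPM in KO-labelled females, with overlap (log2 fold change 0.28, 95% interval -0.04 to 0.60, edgeR adjusted p = 0.338). Prdx3, the mitochondrial enzyme, ran from 40.8 to 48.5 CPM and from 47.0 to 55.5 CPM, again with overlap (log2 fold change 0.19, 95% interval -0.11 to 0.50, edgeR adjusted p = 0.501). Prdx5, found in mitochondria, peroxisomes and cytosol, ran from 45.3 to 54.9 CPM and from 46.8 to 51.5 CPM, so that the KO-labelled range lay inside the Hetz range (log2 fold change -0.08, 95% interval -0.38 to 0.22, edgeR adjusted p = 0.796). Each upper bound of these 3 intervals lies below the lower bound for Prdx1, 0.65. The interval of Prdx6, 0.28 to 0.89, overlaps that of Prdx1, and differences between genes were not tested.

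Txnip, the inhibitor of thioredoxin, rose beside thioredoxin itself. It was at 47.0, 67.1 and 52.1 CPM in Hetz and 117, 81.4 and 89.3 CPM in KO-labelled females. The groups did not overlap, and KO166, lowest of its group for 7 of the 10 genes, was highest for Txnip. The summed myofibre markers were also highest of the group in KO166, at 536 CPM against 96.8 in KO178 and 193 in KO188, with Tnnt3 at 86.2 against 5.89 and 16.1 CPM, and their part in its Txnip value was not tested. The fold was 1.73 (log2 fold change 0.79 ± 0.18 SE, edgeR adjusted p = 0.0398). The call was lost without Hetz164 (adjusted p = 0.166), Hetz181 (0.138), KO166 (0.173) or KO188 (0.103), with total counts in place of scaled sizes (0.0529) and in the fit of all 12 libraries (0.121).

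Txnrd1, Srxn1 and Prdx1 were called in females under all 12 alternatives, with adjusted p at most 0.011, 0.0197 and 0.0459. Without Hetz164, Hetz181 or KO188, those 3 genes were the ones called, and without Hetz165 Prdx6 joined the 5. The log2 fold change of Txnrd1 ran from 1.30 to 1.63, that of Srxn1 from 0.97 to 1.26 and that of Prdx1 from 0.90 to 1.13.

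**Figure D2:**
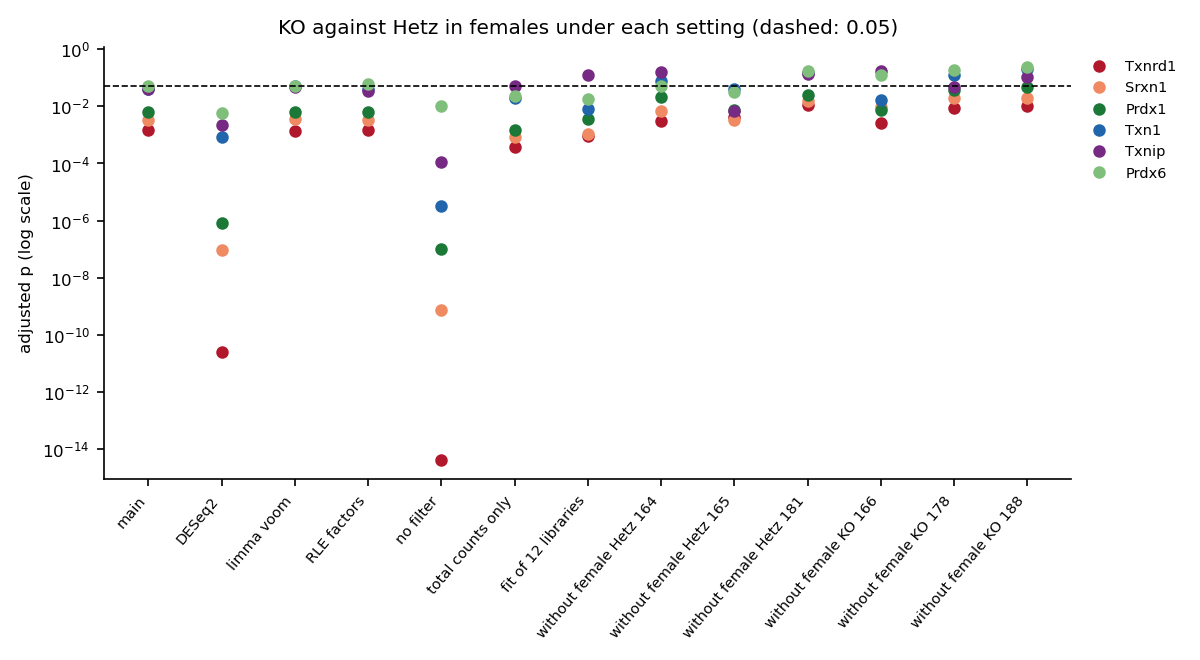
Adjusted p (log axis) for KO-labelled against Hetz in females, for 6 genes (colours) under the reported fit and each of 12 alternatives. The dashed line is the threshold of 0.05. Txnrd1, Srxn1 and Prdx1 stay under the line throughout, and Txn1, Txnip and Prdx6 cross it.

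In females, the summed markers of leukocytes and macrophages, and of satellite cells, were apart between the genotype labels. Those of endothelium, fibro-adipogenic progenitors, pericytes and smooth muscle, myofibres, Schwann cells, tenocytes and red blood cells overlapped. The 8 leukocyte and macrophage markers summed to 88.8 to 129 CPM in Hetz and 37.6 to 59.5 CPM in KO-labelled libraries, with 2 of the 8 called lower (Cd74 and Lyz2) and none at 0 in all libraries. The largest part was Cd74 (mean 61.4 and 22.7 CPM), and only Csf1r had a higher KO-labelled mean (0.79 and 0.96 CPM). The 12 satellite cell markers summed to 13030.4 to 14021 and to 9270.1 to 11738 CPM, with 0 of 12 called. That lower sum rested mostly on Sdc4 (mean 7221 CPM in Hetz and 4849 CPM in KO-labelled libraries) and Vcam1 (2018 and 1438 CPM). Myf5 (1387 and 1032 CPM), Msc (604 and 496 CPM), Chodl (457 and 364 CPM) and Calcr (127 and 86.0 CPM) also had lower KO-labelled means. So, by little, did Heyl and Pax7. Of these lower markers, the groups were apart for Sdc4, Msc and Calcr. Des (817 and 1100.1 CPM), Cdh15 (124 and 177 CPM), Itga7 (462 and 521 CPM) and Fgfr4 (92.8 and 115 CPM) had higher KO-labelled means, all with overlap. The part of these markers in the changes of the thioredoxin genes was not tested.

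In males, none of the 10 genes passed the test: 0 were higher and 0 lower among 13361 genes tested, of which 0.704% were called higher and 0.157% lower. At an unadjusted p under 0.05 there were 2, Srxn1 and Txnrd1, beside 1652 of all 13361 genes (12.4%). DESeq2 and limma voom also called 0 of the 10. The male count over all genes, 115 as fitted, was 41 to 67 without any 1 of the Hetz animals or KO240, 229 without KO247 and 294 without KO255, with 0 of the 10 genes called each time. The male groups overlapped for all 10 genes, where 9.39% of all genes were apart with KO-labelled higher and 7.8% with KO-labelled lower. The median log2 fold change of the 10 was 0.15, beside 0.01 over all genes.

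Txnrd1 was at 2160.2, 1302 and 1428 CPM in Hetz204, Hetz245 and Hetz249 and at 2071, 2735 and 1829 CPM in KO240, KO247 and KO255, the order kept for males. Hetz204 lay above KO240 and KO255, and the other Hetz libraries lay below all of that group. The log2 fold change was 0.44 ± 0.20 SE (95% interval 0.00 to 0.88, edgeR adjusted p = 0.401). Srxn1 was at 382, 282 and 286 CPM against 407, 463 and 336 CPM, with Hetz204 again inside the KO-labelled range (log2 fold change 0.35 ± 0.16 SE, edgeR adjusted p = 0.396).

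Prdx1 was at 593, 527 and 519 CPM in male Hetz and 654, 856 and 499 CPM in KO-labelled animals. KO255 was the lowest of the 6 and KO247 the highest (log2 fold change 0.29, 95% interval -0.08 to 0.67, edgeR adjusted p = 0.55). Txn1 was at 315, 252 and 281 CPM against 312, 336 and 302 CPM, and only KO247 was above all Hetz libraries (log2 fold change 0.17, 95% interval -0.11 to 0.44, edgeR adjusted p = 0.664). Txnip was at 42.0, 44.5 and 63.7 CPM against 54.7, 51.9 and 109 CPM. KO255 stood alone at the top for Txnip: the log2 fold change of 0.52 (95% interval -0.13 to 1.17, edgeR adjusted p = 0.531) was 0.09 without that animal.

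Prdx6 was at 368, 355 and 351 CPM in male Hetz and 347, 404 and 319 CPM in KO-labelled animals, the Hetz range lying inside the other (log2 fold change 0.00, 95% interval -0.28 to 0.27, edgeR adjusted p = 0.994). Prdx2 ran from 36.0 to 53.7 and from 33.3 to 59.0 CPM, Prdx3 from 38.7 to 44.2 and from 35.8 to 46.0 CPM, and Prdx5 from 49.9 to 52.6 and from 43.4 to 63.9 CPM. For these 3 peroxiredoxins, too, the KO-labelled animals spread wider than the Hetz animals on both sides. Txnrd2 ran from 7.90 to 8.60 CPM and from 7.01 to 9.21 CPM (log2 fold change -0.04, 95% interval -0.48 to 0.40).

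Among the male KO-labelled animals, KO247 was highest for 9 of the 10 genes and lowest for Txnip, while KO255 was lowest for 8 and highest for Txnip. KO255 also had the highest summed markers of endothelium (270.3 CPM, against 106 and 125 in the other KO-labelled males) and of red blood cells (78.8 CPM, against 16.9 and 20.5). Its Hbb-bs, Hba-a1 and Alas2 stood at 25.1, 43.0 and 1.53 CPM, and the alpha-globin value is uncertain because its copies are near-identical. The part of these cells in the spread was not tested. Prdx2, 1 of the 8 genes lowest of the group in KO255, was at 33.3 CPM there, the lowest of all 12 libraries. Leaving out KO255 moved the male log2 fold change of Prdx2 from 0.12 to 0.34, and 0 of the 10 genes were called without that animal.

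**Figure D3:**
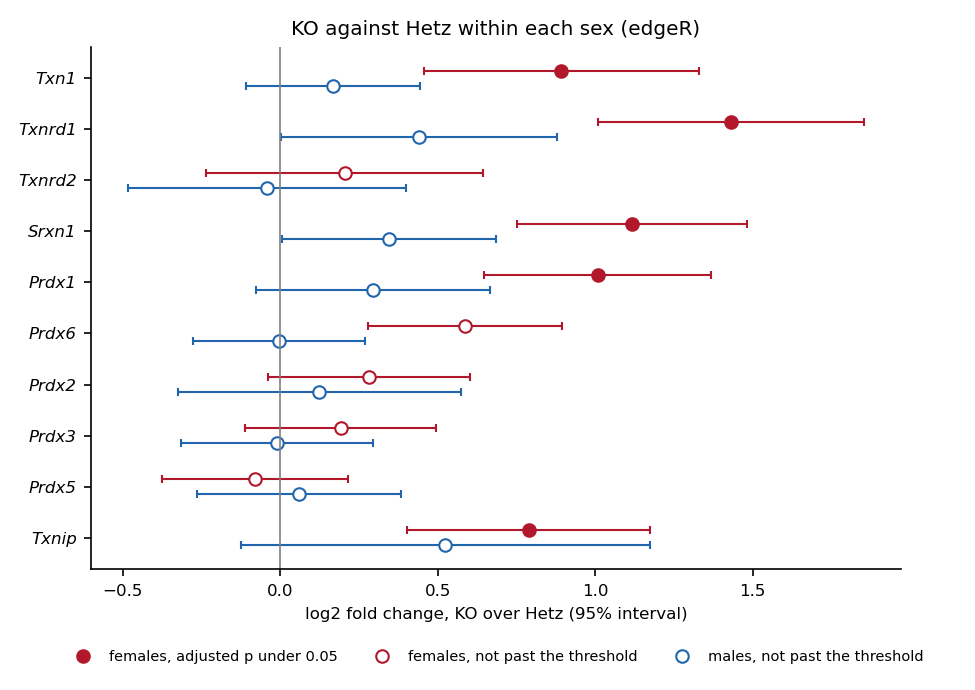
Log2 fold change of KO-labelled over Hetz libraries with 95% intervals from edgeR, in females (red) and males (blue). Filled points passed an adjusted p of 0.05. The 5 filled points are all female, and the male intervals of Txnrd1 and Srxn1 begin at about 0.

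The female change was larger than the male change for 9 of the 10 genes, but no difference passed its own test. In 1 edgeR fit of all 12 libraries, 0 of the 10 genes had an adjusted p under 0.05 for the difference of the changes, beside 0.00677% of 14772 genes with a larger female change and 0.0% with a smaller one, and 5 had an unadjusted p under 0.05, beside 1829 genes of all (12.4%). The count over all genes was 1 as fitted and 206 (78 with a larger female change, 128 with a smaller one) without Hetz165, where 0 of the 10 were called. The difference was 0.99 ± 0.30 (SE, log2) for Txnrd1 (edgeR adjusted p = 0.218), 0.78 for Srxn1 (adjusted p = 0.222) and 0.73 for Txn1 (adjusted p = 0.259). It was 0.72 for Prdx1 (edgeR adjusted p = 0.276), 0.59 for Prdx6 (0.22) and 0.27 for Txnip (0.815). DESeq2, which called 243 of 8951 genes, and limma voom called 0 of the 10 as well. With no filter on low counts edgeR called 358 of 31671 genes and 3 of the 10 (Txnrd1, Srxn1 and Txn1, adjusted p = 0.000869, 0.0258 and 0.0466).

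Averaged over the sexes in the same fit, 4 of the 10 genes were higher and 0 lower, beside 2.15% higher and 1.27% lower over all genes. Txnrd1 rose by 0.94 ± 0.15 (SE, log2; edgeR adjusted p = 0.00135), Srxn1 by 0.73 ± 0.12 (0.00163), Prdx1 by 0.65 ± 0.13 (0.00646) and Txn1 by 0.53 ± 0.13 (0.0236). The first 3 were called without any 1 of the 12 animals. Txn1 was lost without female Hetz181 (edgeR adjusted p = 0.0631), female KO178 (0.0637), female KO188 (0.0844), male Hetz245 (0.0703), male Hetz249 (0.0616) or male KO240 (0.055). Txnip, at 0.66 ± 0.19, did not pass (edgeR adjusted p = 0.0709), and did without male Hetz249 (0.0491) or male KO247 (0.041). DESeq2 called 6 of the 10, adding Prdx6 (adjusted p = 0.0372) and Txnip (0.0116), and edgeR with no filter called 5, adding Txnip. Over all genes 504 were called as fitted, 821 with DESeq2, 858 with no filter, 931 without Hetz165 and 318 to 332 without KO188, male KO240 or male Hetz249.

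Across the 4 groups, female KO-labelled animals had the highest mean CPM for 9 of the 10 genes and male KO-labelled animals for Prdx5. For Txnrd1, Txn1, Srxn1 and Prdx1 the order of the means was female KO-labelled, male KO-labelled, male Hetz, female Hetz. Neighbours in that order overlapped, except that Prdx1 in female KO-labelled lay above all male KO-labelled libraries and Srxn1 in female Hetz lay below all male Hetz libraries. For Prdx6 female KO-labelled was above every male library, and the 2 male groups had nearly the same mean (358 ± 8.77 in Hetz and 356 ± 43.5 CPM in KO-labelled, SD, n = 3). For Txnrd2, Prdx2, Prdx3, Prdx5 and Txnip no neighbouring groups were apart.

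Srxn1 differed between the heterozygous groups, as did 10.2% of all genes by the same test. In male Hetz it was at 317 ± 56.2 CPM and in female Hetz at 190.2 ± 38.9 CPM (SD, n = 3), 1.67-fold higher in males (log2 0.74 ± 0.17 SE, edgeR adjusted p = 0.0122). It was the 1 gene of the 10 called, beside 5.44% of all genes higher and 4.72% lower, and the call was lost without male Hetz204 (edgeR adjusted p = 0.0849). Over all genes the 1501 calls went to 668 without Hetz204 and 763 without Hetz249. Summed markers of other cells moved with this comparison: those of endothelium were at 57.6 to 64.0 CPM in female and 175 to 186 CPM in male Hetz, those of red blood cells at 5.89 to 16.9 and 29.1 to 45.1 CPM, and those of myofibres at 95.5 to 290.2 and 31.3 to 44.3 CPM. Pericytes and smooth muscle (281 to 461 and 173 to 256 CPM), Schwann cells (18.9 to 24.1 and 30.0 to 40.7) and tenocytes (7.51 to 8.89 and 14.0 to 18.9) were also apart. So were satellite cell markers, at 13030 to 14021 and 16096 to 18625 CPM. Those of leukocytes and of fibro-adipogenic progenitors overlapped. Their part in the difference was not tested. Libraries of the 2 Hetz groups were apart for 2 of the 10, Srxn1 and Prdx6, both higher in males, where 15.4% of all genes were apart and higher and 13.7% apart and lower. Txnrd1 had a log2 value of 0.53 in the same direction without passing (edgeR adjusted p = 0.132). The sexes were deposited as separate count tables, so sex and table cannot be told apart, and these Hetz libraries are also the controls of the comparisons within each sex.

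Per exonic kilobase (RPKM, which is CPM divided by the exonic length, computed here from the counts), the 10 genes spanned more than 2 orders of magnitude. That length sums all annotated exons and can exceed the longest transcript. It was 7086 bases against 3622 for Txnrd1 and 4804 against 2558 for Prdx6, but 1051 by both measures for Txn1. The order between genes, and the ratios and shares given below, depend on this choice. By longest transcript, Txnrd1 would stand higher against Txn1. In female Hetz libraries Txn1 led with a mean of 224 RPKM, then Prdx1 with 174 and Txnrd1 with 159.6, 3 levels whose libraries overlapped. Srxn1 (67.4 RPKM) and Prdx6 (60.9 RPKM) followed, then Prdx3 (29.7), Prdx5 (24.0), Prdx2 (19.8) and Txnip (17.7), and Txnrd2 was last at 1.88 RPKM. In female KO-labelled libraries Txnrd1 stood first at 431 RPKM beside Txn1 at 417 RPKM, with overlap, and Prdx1 was at 351 RPKM. Txnip moved up to 30.7 RPKM, above Prdx2 (24.2) and Prdx5 (22.8), and lay above Prdx2 in all of these libraries. The leading 3 in male Hetz were Txn1 (269 RPKM), Txnrd1 (230.1) and Prdx1 (179), and in male KO-labelled Txnrd1 (312), Txn1 (301) and Prdx1 (220.0 RPKM). Txnrd2 was the lowest in all 4 groups, apart from its neighbour in every library. TPM values use the same counts and lengths, so their ranks within a library cannot differ and are no separate check.

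**Figure D4:**
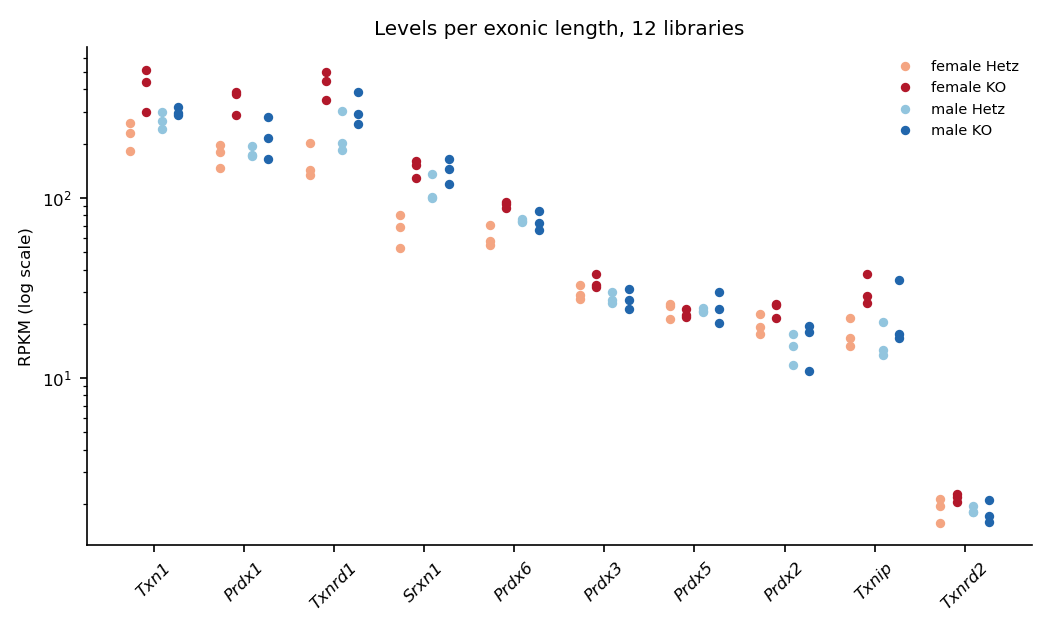
Levels per exonic kilobase (RPKM, log axis) of the 10 genes, ordered by the female Hetz mean, with each point a library and colours for the 4 groups. Txn1, Prdx1 and Txnrd1 lead in all groups and Txnrd2 lies near 2 RPKM throughout.

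The reductase per thioredoxin was computed as the ratio of their RPKM. Txnrd1 per Txn1 was 0.711 ± 0.0773 in female Hetz and 1.05 ± 0.104 in female KO-labelled libraries (SD, n = 3), with the 3 KO-labelled values (0.968 to 1.17) above the 3 Hetz values (0.623 to 0.771). In males it was 0.847 ± 0.148 and 1.03 ± 0.159, with overlap. The cytosolic to mitochondrial ratio of the reductases, Txnrd1 per Txnrd2, was 85.5 ± 18.4 in female Hetz, 198 ± 33.6 in female KO-labelled, 125 ± 39.6 in male Hetz and 173 ± 18.8 in male KO-labelled libraries. Txnip per Txn1 had near-equal means in females, 0.0809 ± 0.0203 in Hetz and 0.0802 ± 0.0394 in KO-labelled libraries, but a wide spread. The Hetz values were 0.0575, 0.0936 and 0.0917. KO166 stood at 0.126, while KO178 and KO188 were at 0.0593 and 0.0556, so the KO-labelled mean rests on KO166. In males this ratio was 0.0603 ± 0.0158 in Hetz and 0.0774 ± 0.0382 in KO-labelled libraries, with overlap. Srxn1 per Prdx1 differed more between the tables than between the genotype labels, at 0.385 and 0.420 in females and 0.623 and 0.661 in males, Hetz then KO-labelled. These ratios are descriptions with no test.

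The pool of peroxiredoxin mRNA was taken as the summed RPKM of Prdx1 to Prdx6, with Prdx4, the enzyme of the endoplasmic reticulum, added. It was 329 ± 34.8 in female Hetz, 549.6 ± 66.7 in female KO-labelled, 336 ± 15.7 in male Hetz and 379 ± 81.9 RPKM in male KO-labelled libraries (SD, n = 3). Prdx1 made up 52.8% ± 3.35 of it in female Hetz and 63.6% ± 2.54 in female KO-labelled, where the lowest KO-labelled library (60.7%) was above the highest Hetz library (55.7%). In males the share of Prdx1 was 53.5% ± 1.93 in Hetz and 57.5% ± 3.05 in KO-labelled libraries, with overlap. In female KO-labelled libraries the mean shares of the others were smaller than in Hetz, at 16.8% beside 18.5% for Prdx6, 6.22% beside 9.04% for Prdx3 and 4.18% beside 7.30% for Prdx5. They were 4.41% beside 6.10% for Prdx2 and 4.82% beside 6.34% for Prdx4. Since shares sum to a whole, and none of those 5 genes was lower by the test, these values describe the makeup of the pool and not a loss of those mRNAs.

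**Figure D5:**
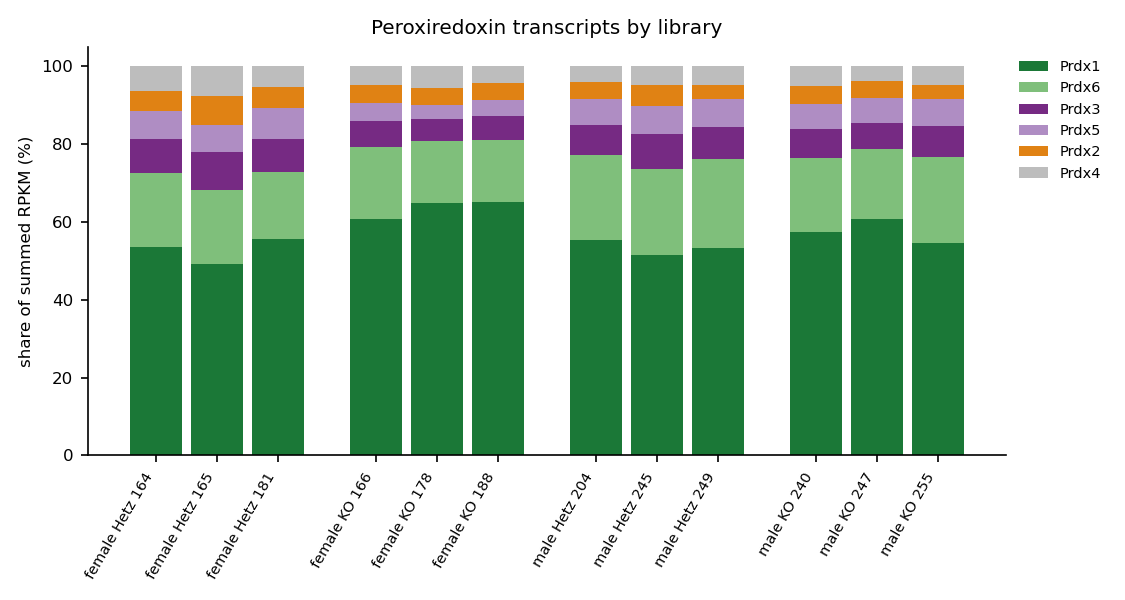
Share (%, linear axis) of each peroxiredoxin in the summed RPKM of Prdx1 to Prdx6, with a bar for each of the 12 libraries. Prdx1 takes 49.1 to 55.7% in female Hetz and 60.7 to 65.2% in female KO-labelled libraries.

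The wider pathway was followed with a list of 45 genes: other thioredoxins and thioredoxin-like proteins, other peroxiredoxins, glutaredoxins, methionine sulfoxide reductases, alpha-arrestins and their Mondo-Max regulators, thioredoxin partners and selenoprotein synthesis. In females 0 of the 44 tested were higher and 1 was lower, beside the 1.29% and 0.983% of all genes, and their median log2 fold change was -0.11. The gene that fell was Arrdc3, an alpha-arrestin related to Txnip. It was at 232, 219 and 251 CPM in Hetz and 129, 166.2 and 164.3 CPM in KO-labelled females, with no overlap (log2 fold change -0.61 ± 0.14 SE, edgeR adjusted p = 0.0457). Its call was lost without any 1 of the 6 animals but Hetz165 (adjusted p = 0.108 to 0.182), and without Hetz165 there were 5 lower genes (Arrdc3, Sephs2, Txndc9, Txnl4a and Txnl4b). Over all genes the lower calls went from 138 to 721 (4.99%) without Hetz165.

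The mitochondrial thioredoxin Txn2 had a log2 fold change of -0.27 in females (edgeR adjusted p = 0.349), and Txn1 per Txn2 in RPKM was 8.54 ± 1.36 in Hetz and 19.2 ± 4.97 in KO-labelled females (SD, n = 3). Prdx4 had 0.35 (edgeR adjusted p = 0.317). In males 0 of 44 were called, with a median of 0.08 and 3 at an unadjusted p under 0.05, beside the 12.4% of all genes. The smallest p there were of Msrb3, a methionine sulfoxide reductase (log2 fold change 0.64, edgeR adjusted p = 0.0638), and Rrm2, a ribonucleotide reductase subunit (0.89, adjusted p = 0.17). DESeq2 called both in males. For the difference of the changes 0 of 44 were called by edgeR (smallest p for Msrb3 and Arrdc1, adjusted p = 0.243 and 0.313), with 6 at an unadjusted p under 0.05, beside 12.4% of all genes. Averaged over the sexes 0 of 44 were called by edgeR, with 5 at an unadjusted p under 0.05 beside 2511 of all 14772 genes (17.0%), and the smallest p for Msrb3 and Trnau1ap, a selenocysteine tRNA factor (adjusted p = 0.091 and 0.133).

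Between the Hetz groups 4 of the 44 were higher in males and 1 lower, beside 5.44% and 4.72% of all genes. Mlxipl, a glucose-sensing factor that drives Txnip, was 2.90-fold higher in male Hetz (edgeR adjusted p = 0.00244), Arrdc3 2.22-fold (0.0039), Rrm2 2.84-fold (0.00425) and Glrx, a glutaredoxin, 2.04-fold (0.0196). Txndc15 had a log2 fold change of -0.67 (edgeR adjusted p = 0.0268). Txnip itself, at 50.1 ± 11.9 CPM in male and 55.4 ± 10.4 CPM in female Hetz (SD, n = 3), did not pass (log2 -0.14, edgeR adjusted p = 0.786).

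For each called gene the most alike profiles were sought among 8056 genes, by the root mean square difference of log2 CPM over the 12 libraries after centring. The nearest to Txnrd1 was Srxn1 (0.24 log2), followed by G6pdx (0.25). G6pdx, which makes NADPH in the pentose phosphate pathway, was also nearest to Prdx1 (0.20), followed by Cdc34 (0.21). For Srxn1 the nearest were Tshz1 (0.23) and Tkt, a transketolase (0.24). Txn1 was nearest to Bahd1 (0.17) and to the ribosomal protein gene Rps24 (0.19), and Txnip to Etv5 (0.22). These distances are descriptions over libraries that share a genotype label and a count table.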

How the data were processed

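The authors' tables hold raw counts of fragments for each Ensembl gene from featureCounts 2.0.0 with Ensembl GRCm38 release 99 exons, per the file headers, without strand, multi-mapping fragments or fragments overlapping several genes. None of the deposited numbers is an estimated count, per the file headers, and rounding was not needed. Per the submitters' processing notes, STAR, Subread, DESeq2 and mm10 were used, in versions not given in the sources used here. Libraries were made by Smart-Seq2 with Tn5, without molecular identifiers, per the labels' protocols. Each sex is a table of its own. The tables held 0 columns of other samples.

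Symbols came from GENCODE M21 (55144 of 55385 identifiers matched). Totals were 13042039 to 19273245 counts, and the precision of a value is set by 3 animals per group. The main test was edgeR 4.0.16 (R 4.3.3): two-sided quasi-likelihood F test with robust fitting and TMM, a filterByExpr minimum count of 10, Benjamini-Hochberg over all genes tested, threshold 0.05. Within a sex the fit used 6 libraries, and other contrasts used 12 with 4 group means. CPM and RPKM used TMM over 12 libraries. Alternatives were DESeq2 1.42.0, limma 3.58.1 voom, RLE factors, total counts only, no filter, 1 fit of 12 libraries and each animal left out. The tests within a sex were tested on simulated data. Near-copies were sought with BLAST+ 2.17.0. Promoter windows are RefSeq's, on GRCm38.p6.

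The genes and lists were chosen with earlier results of these data known. All 10 genes are named. Of the pathway list, called genes are named (at most 10 a comparison), or the 2 with the smallest p where none passed. For each gene called in a sex the 2 nearest profiles are named, among genes tested in both sexes with an average log2 CPM of at least 3. One of these is not reported here. Genes named outside this rule (Txn2, Prdx4, and those called under an alternative alone) were chosen after their values were seen.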

Additional observations from a re-analysis of the deposited data

How the results depend on the processing

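No paired analysis was made, because each animal gave 1 library and the sample titles name no pairs, such as littermates. Of the 10 genes, edgeR with no filter on low counts called 3 for the difference of the female and male changes and 2 between the Hetz groups, and for the average DESeq2 called 6 and no filter 5. With each animal left out in turn, the number called was 3 to 6 in females, 0 in males, 0 for the difference, 3 to 5 for the average and 0 to 1 between the Hetz groups. Of the other pathway genes, no filter gave 2 calls in females, 2 in males and 1 for the average, the fit of 12 libraries gave 0 in females, and DESeq2 gave 2 in males and 2 for the average. With animals left out these ran from 0 to 5 in females, 0 to 1 in males, 0 to 2 for the average and 3 to 6 between the Hetz groups. The cause was not tested.

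The values that changed sign were uncalled in the reported fit and in the changed one, and each changed with an animal left out. In males the log2 fold change of Prdx2 ran from -0.025 to 0.34, Prdx3 from -0.10 to 0.070, Prdx5 from -0.089 to 0.18, Prdx6 from -0.096 to 0.067 and Txnrd2 from -0.16 to 0.021. For the difference of the changes Prdx2 ran from -0.053 to 0.31 and Prdx5 from -0.26 to 0.014, and for the average Prdx5 from -0.083 to 0.053. Between the Hetz groups Prdx1 ran from -0.066 to 0.13, Prdx5 from -0.099 to 0.025, Txnip from -0.37 to 0.015 and Txnrd2 from -0.14 to 0.075. With 3 animals a group, the 95% interval of Txnrd2 in females still allows 0.65 on the log2 scale.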
